A study of Saccharomyces cerevisiae with 6 samples.

Results

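Long terminal repeats are the direct repeats that flank Ty elements, the retrotransposons of budding yeast, and all 384 nuclear features of that type in the R64 annotation were taken here, whatever the peak lists held at them. Of these, 288 were solo repeats and 96 lay wholly inside 1 of 50 annotated Ty elements, and 218 lay within 500 bp of 1 of the 275 nuclear tRNA genes. They were set against Nic96 contacts mapped by anti-Myc chromatin immunoprecipitation and sequencing (ChIP-seq) in cells grown at 25 °C and then heat-shocked for 15 min at 37 °C. Nic96 is a scaffold nucleoporin of the nuclear pore complex (NPC). Both strains were BY4742 derivatives (MATalpha, with the his3Δ1, leu2Δ0, lys2Δ0 and ura3Δ0 markers), carried plasmid pRS313 and expressed Nic96-13myc marked with KanMX. The mutant (*tho*) also lacked the THO subunit Mft1 (mft1::NatMX), and the other strain was wild-type (*wt*) for *MFT1*. Peaks had been called against an untagged library of the same strain type and temperature, which carried mft1::KanMX in the case of *tho*. The 6 samples of the study include untagged and tagged *wt* cells at 25 °C, which were not analysed here. Each condition had 1 library, so no difference has a replicate check, no test was made and no p-value is given. Peaks come from whole cultures, so contact in few cells and weak contact in many cannot be told apart.

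Ty elements move by copying their RNA into DNA and inserting it elsewhere. Each repeat carries signals for starting and ending the element's RNA, and recombination between the pair of repeats of an element removes its inner part and leaves a solo repeat. Ty1, Ty2, Ty3 and Ty4 insert upstream of genes read by RNA polymerase III, chiefly tRNA genes, and Ty3 does so right at their start site. Ty5 instead inserts into silent chromatin near telomeres and mating-type loci. Ty1 and Ty2 repeats are known as delta, Ty3 repeats as sigma, Ty4 repeats as tau and Ty5 repeats as omega.

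The annotation gave 267 Ty1, 32 Ty2, 42 Ty3, 35 Ty4 and 8 Ty5 repeats. Their length ran from 28 to 715 bp with a median of 331.5 bp, and their median GC content was 30.5%. Of the 218 repeats within 500 bp of a tRNA gene, 207 lay on its upstream side. The median gap to the nearest tRNA gene was 16 bp for Ty3 repeats, against 403 bp for Ty1, 1795 bp for Ty2, 502 bp for Ty4 and 63639 bp for Ty5 repeats. In 34 of the 42 Ty3 repeats the gap was 14 to 18 bp, each time upstream of the gene, and in 25 of these the repeat ran in the opposite direction to the gene.

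Of the repeats beside tRNA genes that a peak reached, 7 are shown at their tRNA side, with 1 identical copy without a peak, so that the bases covered and the distance to the tRNA gene can be read off. Sequences are from the R64 reference (sacCer3) and run along the strand of the tRNA gene. Each ends at the last base before the tRNA gene for Ty3 and at the end of the repeat for Ty1, and capitals mark bases under a peak. The first 3 share 1 repeat sequence and differ only in the last bases, which are the spacer before the gene. The fourth is the same repeat in the other direction, so its other end faces the gene.
Ty3 repeat before tRNA-Ser, chrI:182604-182739, minus strand, *tho* peak: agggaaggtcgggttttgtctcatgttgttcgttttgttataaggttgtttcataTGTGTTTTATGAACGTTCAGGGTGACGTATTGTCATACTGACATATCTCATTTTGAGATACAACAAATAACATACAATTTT
Ty3 repeat before tRNA-Lys, chrXI:202864-202998, plus strand, *tho* peak: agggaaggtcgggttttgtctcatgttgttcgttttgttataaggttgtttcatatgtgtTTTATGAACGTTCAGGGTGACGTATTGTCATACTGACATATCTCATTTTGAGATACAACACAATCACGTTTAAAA
Ty3 repeat before tRNA-Cys, chrVII:707180-707314, minus strand, no peak in either list: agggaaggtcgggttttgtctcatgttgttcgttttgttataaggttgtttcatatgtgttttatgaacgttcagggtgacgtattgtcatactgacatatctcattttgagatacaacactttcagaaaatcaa
Ty3 repeat before tRNA-Ile, chrIX:210528-210664, plus strand, *wt* peak: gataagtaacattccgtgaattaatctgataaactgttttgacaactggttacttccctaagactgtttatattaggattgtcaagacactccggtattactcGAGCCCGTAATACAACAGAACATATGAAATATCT
Ty3 repeat before tRNA-Ala, chrXVI:856766-856901, plus strand, *tho* peak: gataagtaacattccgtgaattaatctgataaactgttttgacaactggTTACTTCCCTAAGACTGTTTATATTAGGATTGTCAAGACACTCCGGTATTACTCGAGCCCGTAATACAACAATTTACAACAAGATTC
Ty3 repeat before tRNA-Glu, chrV:354851-354933, plus strand, *wt* peak: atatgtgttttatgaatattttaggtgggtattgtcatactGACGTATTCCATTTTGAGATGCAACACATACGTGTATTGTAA
Ty1 repeat before tRNA-Met, chrX:517959-518099, minus strand, *tho* peak: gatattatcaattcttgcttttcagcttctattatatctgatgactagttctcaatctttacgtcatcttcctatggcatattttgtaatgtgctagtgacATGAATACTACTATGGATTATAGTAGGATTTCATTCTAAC
Ty1 repeat before tRNA-Ser, chrVI:191685-191854, minus strand, *tho* peak: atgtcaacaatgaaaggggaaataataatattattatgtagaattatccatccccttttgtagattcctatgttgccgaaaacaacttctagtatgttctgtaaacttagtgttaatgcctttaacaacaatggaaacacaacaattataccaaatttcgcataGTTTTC

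Few long terminal repeats held a Nic96 peak in either strain. In *tho*, 9 of 384 repeats were overlapped by at least 1 bp of a peak (2.34%, exact binomial 95% interval 1.08 to 4.40%), and in *wt* 5 of 384 were (1.30%, interval 0.424 to 3.01%). Intervals cover counting only, and repeats of shared sequence are not independent. The peaks used were those with a q-value, the false discovery rate given by the peak caller, under 0.05, which left 571 nuclear *tho* and 993 nuclear *wt* peaks. When the nuclear genome was cut into 36460 windows of 331 bp, 4.94% of them overlapped a *tho* peak and 6.55% a *wt* peak. Among the 4901 windows that touch no protein-coding gene, the shares were 9.79% in *tho* and 4.00% in *wt*. By length, peaks covered 0.548% of the 111228 bases of the repeats in *tho*, against 3.36% of the nuclear genome, and in *wt* 0.377%, against 3.85%.

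The share with a peak nearby was about the same for long terminal repeats as for all windows in *tho*, and lower in *wt*. A *tho* peak came within 500 bp of 35 repeats (9.11%), against 8.90% of the windows. A *wt* peak came within 500 bp of 38 repeats (9.90%), against 13.5% of the windows. These windows include those in genes, and neither an interval nor a share for windows outside genes is given for this distance. No repeat held the summit of a peak, the point of highest signal within it, in either list (0 of 384, which allows a share of up to 0.781%). With 571 *tho* and 993 *wt* nuclear peaks for 36460 windows, most windows hold no summit either. The share of windows that hold one is not given here. The 18 repeats within 20 kb of a chromosome end held no peak in either list (0 of 18, which allows up to 16.7%). The share for windows that near to an end is likewise not given. *MFT1* held no peak in either list, so the peaks say nothing of its deletion.

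Many repeats are near-identical copies, to which a read taken alone cannot always be assigned with certainty. Reads were sequenced in pairs, and placement by a mate outside the repeat was not taken into account below. In 241 repeats most 75-mers occur once in the genome, and of these 5 held a *tho* peak (2.07%) and 3 a *wt* peak (1.24%). Of the other 143, 4 held a *tho* peak (2.80%) and 2 a *wt* peak (1.40%). Across the genome, windows made mostly of repeated 75-mers overlapped a *tho* peak in 6.74% and a *wt* peak in 17.4% of cases, and windows made mostly of unique ones in 4.84% and 5.94%. The share with a peak was thus low in repeats of unique sequence as well, and the part of read placement in these shares was not tested.

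**Figure D1:**
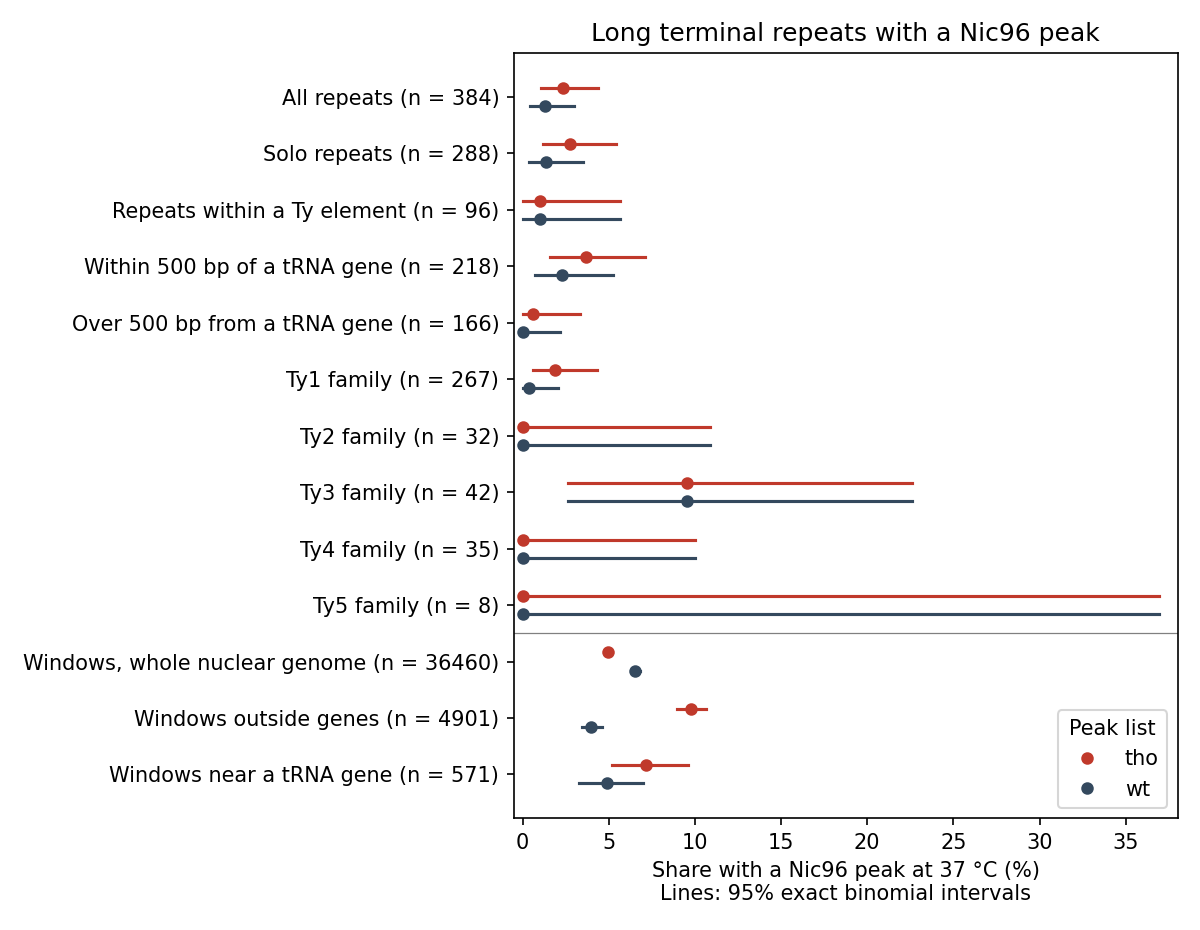
Shares (%) of long terminal repeats and of genome windows of 331 bp overlapped by a *tho* or *wt* Nic96 peak, with exact binomial 95% intervals. All repeats together sit at 2.34% in *tho* and 1.30% in *wt*, below the 4.94% and 6.55% of all windows. Of the 5 families Ty3, most of whose repeats lie within 20 bp of a tRNA gene, sits highest, at 9.52% in both lists.

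Solo repeats were set against repeats that still flank an element. In *tho*, 8 of 288 solo repeats held a peak (2.78%, interval 1.21 to 5.40%), and 1 of 96 repeats within Ty elements did (1.04%, interval 0.0264 to 5.67%). In *wt*, 4 of 288 solo repeats held a peak (1.39%, interval 0.380 to 3.52%), and again 1 of 96 within Ty elements (1.04%). The difference was 1.74 percentage points in *tho* (Newcombe 95% interval -3.09 to 4.48) and 0.347 points in *wt* (interval -4.35 to 2.64), and both intervals include 0. The groups differ in more than the presence of an element. Only 34.4% of repeats within elements lay within 500 bp of a tRNA gene, against 64.2% of solo repeats, and 3 of the 96 were of mostly unique sequence, against 238 of the 288. One of the *tho* solo repeats, the Ty3 repeat before tRNA-Ala on chromosome XVI, overlaps by its first bases the edge of a neighbouring Ty1 element, YPRCTy1-4.

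Almost every repeat with a peak lay beside a tRNA gene. Of the 218 repeats within 500 bp of a tRNA gene, 8 held a *tho* peak (3.67%, interval 1.60 to 7.10%) and 5 a *wt* peak (2.29%, interval 0.749 to 5.27%). Among the 166 repeats farther away there was 1 *tho* peak (0.602%, interval 0.0153 to 3.31%) and no *wt* peak (0 of 166, which allows up to 1.81%). The difference was 3.07 percentage points in *tho* (Newcombe interval -0.202 to 6.51) and 2.29 points in *wt* (interval -0.320 to 5.26), so that neither interval excludes 0. Windows placed within 500 bp of a tRNA gene that hold neither the gene nor a repeat overlapped a peak in 7.18% of cases in *tho* and in 4.90% in *wt*, and windows farther away in 4.80% and 6.56%. The share of repeats near tRNA genes that held a peak was thus below that of these windows in both lists, but the intervals overlap. Those of the windows are 5.20 to 9.62% in *tho* and 3.28 to 7.01% in *wt*. The windows lie on either side of the gene, while 207 of the 218 repeats lie upstream, so position was not matched.

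Within 500 bp, the share with a peak was lower in each wider class of gap, though the counts are small and the intervals of neighbouring classes overlap. With a gap of up to 20 bp, 4 of 36 repeats held a *tho* peak (11.1%) and 3 a *wt* peak (8.33%). From there up to 100 bp, 2 of 33 repeats held a *tho* peak (6.06%) and 1 a *wt* peak (3.03%), and from there up to 200 bp, 2 of 82 held a *tho* peak (2.44%) and 1 a *wt* peak (1.22%). None of the 67 repeats beyond that and up to 500 bp held a peak in either list (which allows up to 4.48%). The 3 repeats just inside the limit of 500 bp, at 485 to 490 bp, and the 3 just outside it, at 502 to 509 bp, held no peak. Peak coverage also fell upstream of the 103 tRNA genes with no repeat within 500 bp. At 20, 100, 200 and 500 bp upstream it was 16.5, 9.71, 8.74 and 1.94% in *tho*. In *wt* it was 7.77, 2.91, 2.91 and 0.971%. These are shares at single positions, not overlaps of a whole repeat. A fall with distance from the gene is thus not particular to the repeats.

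**Figure D2:**
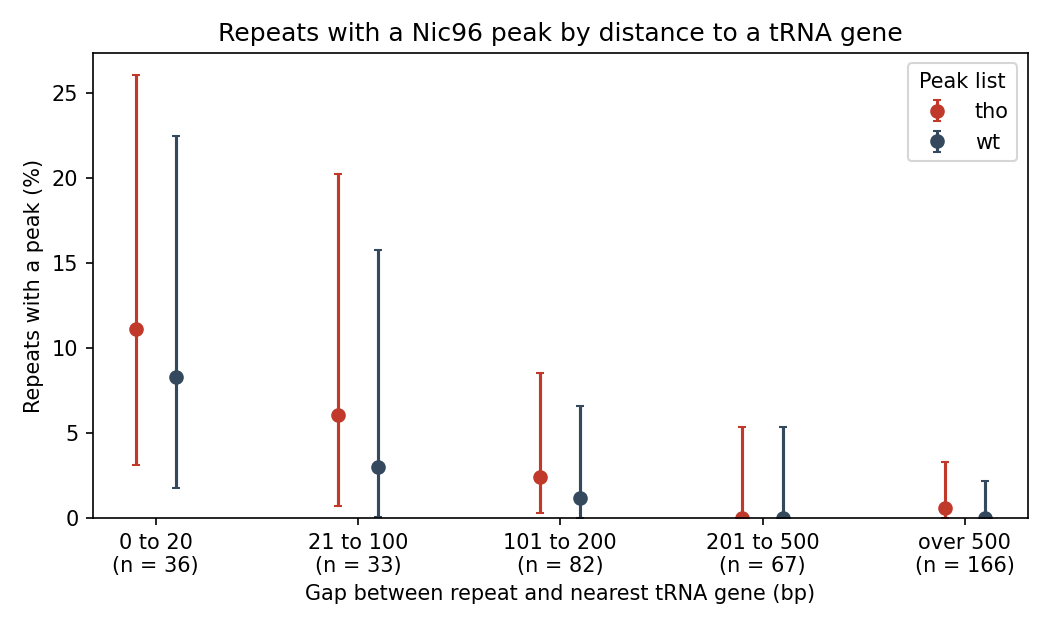
Share of long terminal repeats with a peak (%) by the gap to the nearest tRNA gene (bp), in *tho* and *wt*, with exact binomial 95% intervals. The share is 11.1% in *tho* and 8.33% in *wt* at up to 20 bp and 0% in both in the class that ends at 500 bp, while the intervals of neighbouring classes overlap.

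Only Ty1 and Ty3 repeats held peaks. Of the 36 repeats within 20 bp of a tRNA gene, 34 were Ty3 repeats, so family and distance to the gene cannot be told apart. Of the 42 Ty3 repeats, 4 held a *tho* peak and 4 a *wt* peak (9.52% each, interval 2.66 to 22.6%), and of the 267 Ty1 repeats 5 held a *tho* peak (1.87%, interval 0.611 to 4.32%) and 1 a *wt* peak (0.375%, interval 0.00948 to 2.07%). None was found in either list at 32 Ty2, 35 Ty4 or 8 Ty5 repeats, which allows shares of up to 9.38%, 8.57% and 37.5%. Over both lists, 12 repeats held a peak, 7 of Ty3 and 5 of Ty1, and 2 of them held one in both. Those 2 were 22.2% of the 9 *tho* repeats and 2 of the 5 *wt* repeats. Of all windows, 399 overlapped a peak in both lists, which was 22.2% of the 1801 windows with a *tho* peak and 16.7% of the 2387 with a *wt* peak, so the repeats' sharing is not set apart by these counts.

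The summits of these peaks lay past the repeat, mostly in the tRNA gene. In *tho*, 7 of 9 peaks had their summit inside the tRNA gene, 39 to 200 bp beyond the edge of the repeat (median over the 9 peaks 74 bp). In *wt*, 4 of 5 did, and the 5 summits lay 43 to 248 bp beyond the repeat (median 74 bp). All 8 *tho* and all 5 *wt* peaks beside a tRNA gene covered that gene whole, and in each the repeat was on the upstream side. Among all nuclear peaks, 39 of 571 in *tho* (6.83%) and 26 of 993 in *wt* (2.62%) had their summit in a tRNA gene. Among peaks over tRNA genes that reached no repeat, 32 of 37 in *tho* (86.5%) and 22 of 23 in *wt* (95.7%) did. The like counts for peaks over tRNA genes that reached a repeat were 7 of 8 in *tho* and 4 of 5 in *wt*. A summit in the tRNA gene thus does not set apart the peaks that reached a repeat. The part of the repeat under the peak was short, with a median of 65 bp in *tho* (range 6 to 162 bp) and 57 bp in *wt* (range 17 to 206 bp).

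**Figure D3:**
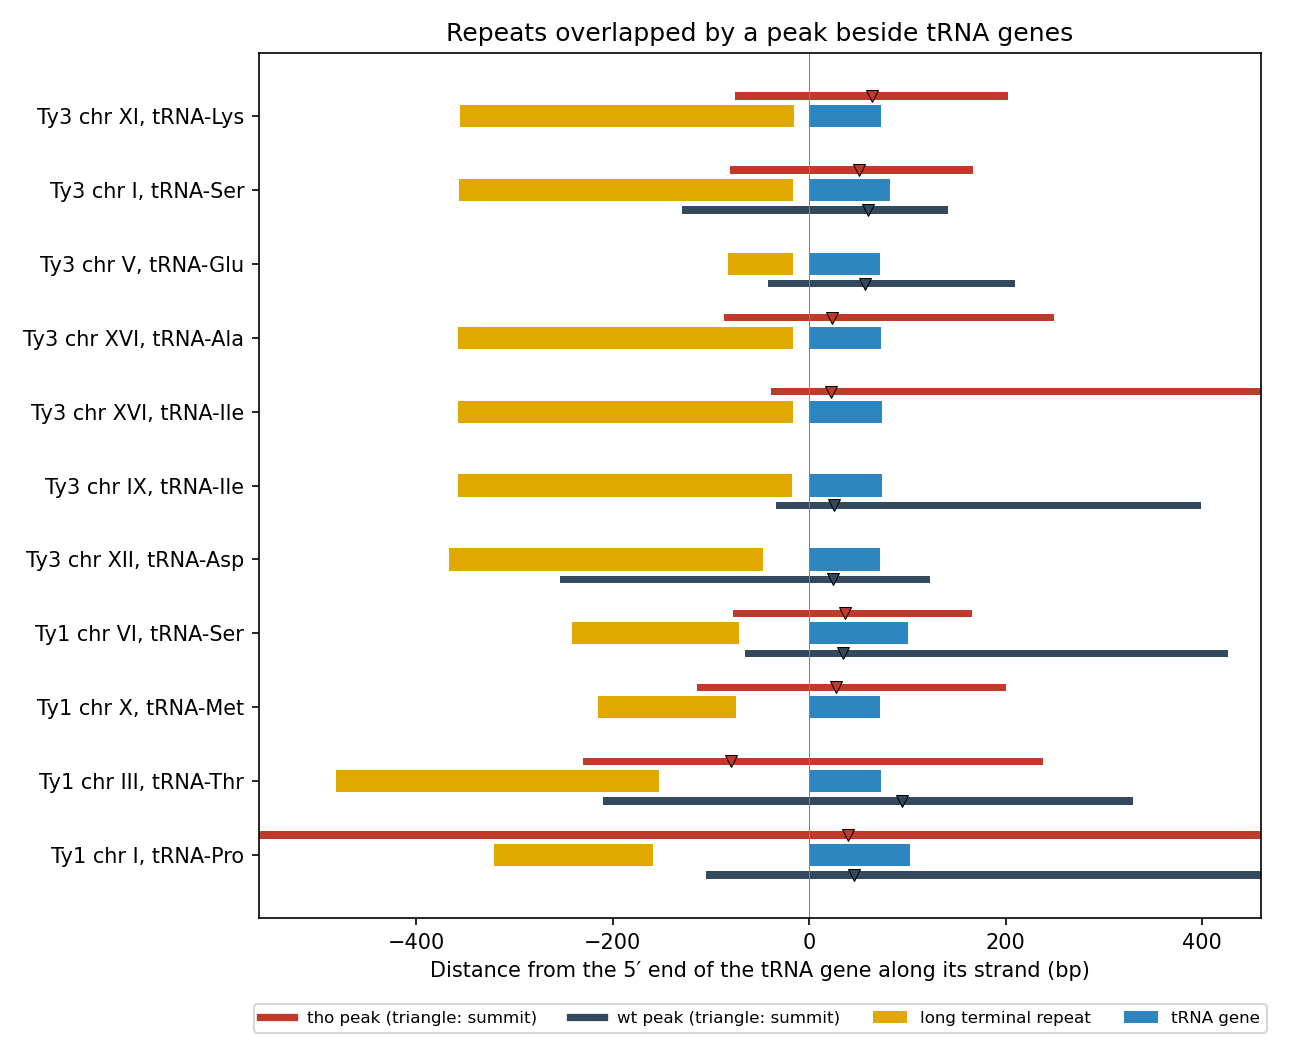
The 11 repeats beside tRNA genes that held a peak, drawn by distance (bp) from the 5′ end of the tRNA gene along its strand, with the long terminal repeat, the tRNA gene, and *tho* peaks above and *wt* peaks below with their summits as triangles. Peaks running past the axis are cut off. No summit lies in a repeat, and the 7 *tho* and 4 *wt* summits within a tRNA gene fall on the blue box, as do both *wt* summits of peaks that stop short of the Ty1 repeats on chromosomes VI and I.

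Among Ty3 repeats, the solo repeat on chromosome I (182620 to 182959, plus strand, 16 bp from a tRNA-Ser gene) was reached by peaks of both strains. The *tho* peak spanned 248 bp, had a −log10 q of 15.1 and covered 65 bp of the repeat. Its fold enrichment, the peak caller's ratio at the summit from the call against the untagged library, was 2.49. The *wt* peak spanned 270 bp, had 1.73 times the untagged signal and a −log10 q of 3.29, and covered 113 bp. Both summits, at 182552 in *tho* and 182543 in *wt*, lay in the tRNA gene. Fold enrichments and q-values of the lists were computed against different untagged libraries, so they are not compared between strains.

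The same 340 bp sequence occurs in 6 Ty3 repeats, and their peaks differed. The copy on chromosome I held both peaks, the solo copy on chromosome XI (202644 to 202983) only a *tho* peak of 277 bp, and the copy on chromosome IX (210308 to 210647) only a *wt* peak of 433 bp. The other 3 copies held none. The element YILWTy3-1 on chromosome IX has this sequence at both ends, and its *wt* peak reached only the copy 17 bp from the tRNA-Ile gene and not the copy 5105 bp away. The copy of the Ty3 element on chromosome VII that lies 15 bp from a tRNA-Cys gene, printed above, held no peak. Identical repeats thus stood both with and without a peak, and each copy with a peak had a covered tRNA gene beside it. Of the repeat bases covered on chromosome I, 37 of 65 under the *tho* peak and 37 of 113 under the *wt* peak were centres of 75-mers that occur once. Under the *tho* peak on chromosome XI these were 36 of 60, and under the *wt* peak on chromosome IX all 17.

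Of the other Ty3 repeats, 2 on chromosome XVI held a *tho* peak only. The repeat from 856545 to 856885, before a tRNA-Ala gene, was covered for 71 bp by a peak of 336 bp with a fold enrichment of 2.77. The repeat from 880386 to 880726, before a tRNA-Ile gene, was covered for 23 bp by a peak of 514 bp with a fold enrichment of 2.35. Neither it nor the copy on chromosome XI meets the rule for named repeats, and both were named after their values were seen, because so few repeats held a peak.

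In *wt* only, peaks reached 2 further solo Ty3 repeats. The fragment of 67 bp on chromosome V (354851 to 354917, before a tRNA-Glu gene) was covered for 26 bp by a peak of 251 bp (fold enrichment 2.53). The repeat on chromosome XII (793552 to 793870, 47 bp before a tRNA-Asp gene) was covered for 206 bp, or 64.6% of its length, by a peak of 376 bp (fold enrichment 2.82, the 12th highest of the *wt* list). It was the *wt* repeat with the largest share covered. No *tho* peak overlapped the tRNA genes beside the 3 repeats with a *wt* peak alone, and the nearest *tho* peaks lay 3236 to 11753 bp away.

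Among Ty1 repeats, the largest overlap was at a solo fragment on chromosome I (138831 to 138992), 159 bp before *TRN1*, a tRNA-Pro gene. In *tho* it lay wholly within a peak of 4227 bp (137825 to 142051) with the highest fold enrichment of all nuclear *tho* peaks, 24.8. This peak also extends over *SSA1*, a cytosolic Hsp70 gene whose nearer edge lies 311 bp from the summit. The *wt* peak there was 2321 bp wide, with a fold enrichment of 4.11, the second highest of the nuclear *wt* peaks. It also reached into *SSA1* and stopped 54 bp short of the repeat. The summits, at 139192 in *tho* and 139198 in *wt*, were both in the tRNA gene. Without this fragment, 8 of 383 repeats held a *tho* peak (2.09%).

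A second Ty1 repeat with peaks on its tRNA gene in both strains lay on chromosome VI (191685 to 191854, 71 bp before a tRNA-Ser gene). The *tho* peak of 243 bp (fold enrichment 2.89) covered 6 bp of it, and the *wt* peak of 491 bp (fold enrichment 3.25) stopped 6 bp before it. Their summits, at 191577 and 191579, lay in the gene. This repeat therefore counts as *tho* only, although its tRNA gene lay under a peak in each strain. Of the 7 repeats with a *tho* peak alone, this one and the one before *TRN1* had a *wt* peak over their tRNA gene. For the other 5, the nearest *wt* peak was 1622 to 5930 bp away.

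The Ty1 repeat on chromosome III (295003 to 295330) was likewise reached in both strains and lies 153 bp before a tRNA-Thr gene beside *HMR*, a silent mating-type locus whose silencing this tRNA gene is known to bound. The *tho* peak of 468 bp (fold enrichment 2.35) covered 77 bp of the repeat and the *wt* peak of 539 bp (fold enrichment 2.63) covered 57 bp. Here the summits fell outside the gene and on opposite sides of it, 80 bp upstream at 295404 in *tho* and 22 bp downstream at 295578 in *wt*. On chromosome X, the fragment from 517959 to 518099, 74 bp before *IMT3*, a gene for the initiator tRNA-Met, was covered for 40 bp by a *tho* peak of 314 bp with a fold enrichment of 3.64. No *wt* peak lay over *IMT3*.

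A single repeat held a peak with no tRNA gene near, and it lay in a Ty element. It is the upstream repeat of YLRWTy1-3 on chromosome XII (650824 to 651157), the Ty1 insertion that interrupts the 3′ end of *HAP1*, a heme-responsive transcription factor gene, in S288C-derived strains. A *tho* peak of 327 bp from 651053 to 651379 (fold enrichment 2.13) covered the last 105 bp of the repeat and the start of the element's first open reading frame, YLR256W-A. The summit, at 651227, lay 70 bp past the repeat. Of the repeat bases under the peak, 52 of 105 were centres of unique 75-mers. The nearest tRNA gene was 5776 bp away and the nearest *wt* peak 2143 bp away. The covered stretch is shown in capitals from the side of *HAP1* toward the element.
Ty1 repeat of YLRWTy1-3, chrXII:651038-651157, plus strand, *tho* peak: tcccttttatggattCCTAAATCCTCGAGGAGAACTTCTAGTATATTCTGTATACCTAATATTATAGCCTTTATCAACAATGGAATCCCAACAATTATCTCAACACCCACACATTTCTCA

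Peaks that reached a repeat had median fold enrichments above those of their lists. At the median, the 9 *tho* peaks spanned 327 bp, with a median fold enrichment of 2.49 (range 2.13 to 24.8), against 449 bp and 1.89 for all 571 nuclear *tho* peaks. At the median, the 5 *wt* peaks spanned 376 bp, with a median fold enrichment of 2.53 (range 1.73 to 2.82), against 385 bp and 1.76 for the 993 nuclear *wt* peaks. Peaks over tRNA genes that reached no repeat had medians of 2.26 in *tho* (37 peaks) and 2.21 in *wt* (23 peaks). The lowest −log10 q at a repeat was 11.1 in *tho* and 3.29 in *wt*, and no repeat was overlapped only by a deposited peak of q over 0.05.

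Seen from the tRNA genes, those with a repeat within 500 bp held a *tho* peak in 26 of 172 cases (15.1%, interval 10.1 to 21.4%), and those without in 20 of 103 (19.4%, interval 12.3 to 28.4%). In *wt* these were 21 of 172 (12.2%, interval 7.72 to 18.1%) and 9 of 103 (8.74%, interval 4.07 to 15.9%). The 26 genes lay under 25 *tho* peaks and the 21 genes under 19 *wt* peaks, since neighbouring genes can share a peak. The peak reached the nearest repeat at 8 of the 26 genes in *tho* and at 5 of the 21 in *wt*. At the other genes it stopped a median of 119.5 bp short of the repeat in *tho* (range 18 to 471 bp) and 70.0 bp short in *wt* (range 6 to 380 bp).

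At the median, these tRNA peaks ran farther downstream of the gene than upstream of it. In *tho* they extended, at the median over genes, 72.0 bp upstream of the tRNA gene and 190.0 bp downstream of it where a repeat was near, against 65.5 and 200.5 bp where none was. In *wt* the medians were 52.0 and 260.0 bp with a repeat, against 69.0 and 130.0 bp without. Each of the 34 Ty3 repeats within 20 bp had a tRNA gene of its own, and 4 of these genes held a peak in *tho* and 4 in *wt* (11.8% each, interval 3.30 to 27.5%). All 4 *tho* peaks and 3 of the 4 *wt* peaks reached the repeat, and the remaining *wt* peak, at a tRNA-Gly gene on chromosome II, stopped 8 bp short.

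**Figure D4:**
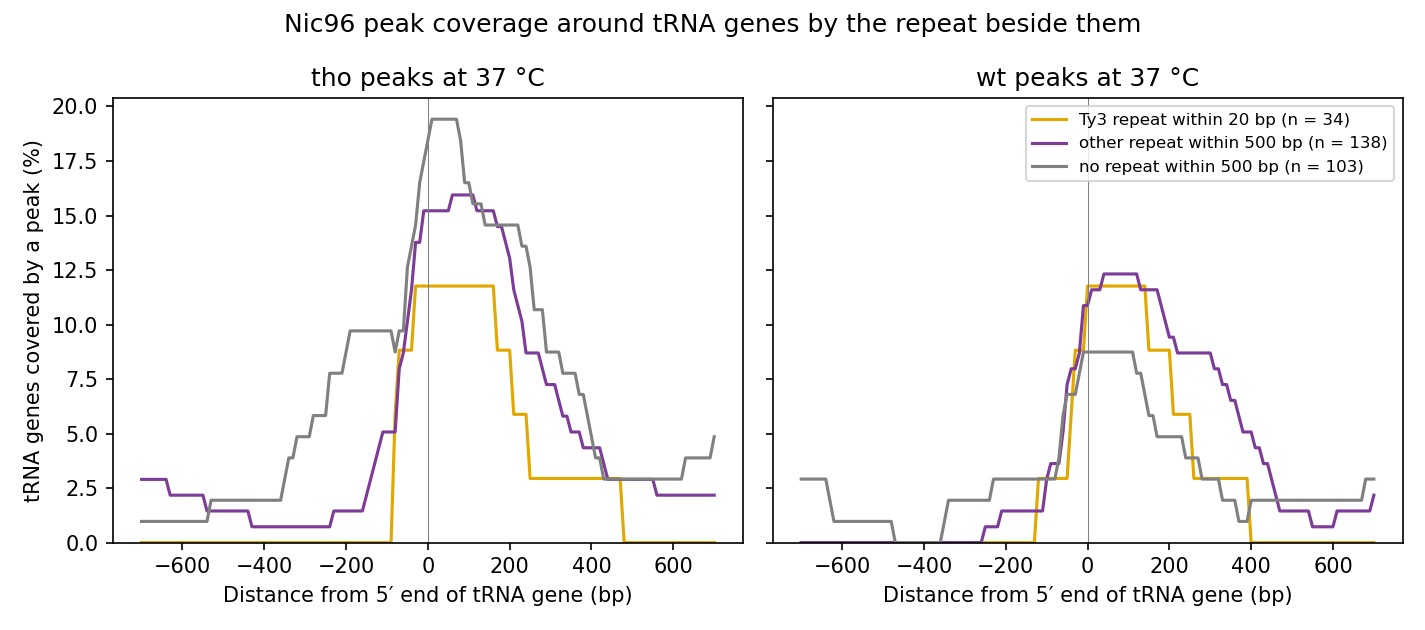
Share of tRNA genes (%) under a *tho* (left) or *wt* (right) peak by distance (bp) from the 5′ end of the gene, for genes with a Ty3 repeat within 20 bp, with another repeat within 500 bp, or with none. Coverage peaks at and around the gene, at 11.8% in *tho* and in *wt* beside Ty3 repeats, and at 200 bp upstream, inside most Ty3 repeats, it is 0% in both (0 of 34, which allows up to 8.82%), with 1.45% in both beside other repeats and 8.74% in *tho* and 2.91% in *wt* beside genes with no repeat, all below that limit.

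Short motifs were searched in the repeats on both strands, with the share of the 36460 windows in the genome that hold them. TGTTGG and CAACA, counted at any position and not only at the ends of a repeat, were in 64.1% and 88.5% of repeats. In windows these shares were 19.4% and 61.8%. They are not independent, since the reverse complement of CAACA lies within TGTTGG. The pheromone response element TGAAACA was in 37 of 42 Ty3 repeats and in 30.7% of all repeats, against 8.69% of windows, and in 6 of the 7 Ty3 and 1 of the 5 Ty1 repeats with a peak. The heat shock element core GAANNTTC was in 7.55% of repeats, against 15.2% of windows, and in 13 of 42 Ty3 and 13 of 267 Ty1 repeats. Of the repeats with a peak, 4 of the 7 Ty3 and none of the 5 Ty1 repeats held it. TGACTC, the core bound by Gcn4, was in 0.521% of repeats and none with a peak, against 9.93% of windows. GGTTCGA, from the B box within tRNA genes, was in none of the 384 repeats and in 2.40% of windows. Repeats differ in length from the windows, and a match of letters is not a bound site.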

How the data were processed

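The deposited files hold MACS2 narrow peaks for the tagged *tho* and *wt* libraries at 37 °C. The authors aligned paired-end reads to sacCer3 using Bowtie2 with perfect matches only, dropped duplicates with SAMtools rmdup and called peaks against the untagged library. How reads with several matches were placed is not given in the sources used here. The deposited fold enrichment is a ratio at the summit. The authors' −log10 columns hold the p-value and the q-value from MACS2. Their deposited score column, not used here, is 10 times the −log10 p-value, rounded down. No read counts were at hand, so the depth is unknown.

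Peaks with q under 0.05 were kept (608 of 664 in *tho*, 993 of 1248 in *wt*), 37 mitochondrial *tho* peaks were left out, and starts were converted to count from 1. All peaks ended within R64 chromosome lengths. A repeat within Ty lies wholly inside an annotated element. Overlap means at least 1 bp. A 75-mer belongs to the base at its centre. The limit for a count of 0 is 3 counts of the total. Named repeats were those overlapped in both lists and, in each list, the 5 with the highest fold enrichment and the 5 with the largest share covered. The members and lists were chosen with earlier results of these data known. Alternatives covered the peak threshold, the overlap rule, the repeats counted and the tRNA distance. Tested on 40 planted peaks, the code recovered all 46 overlaps with the 384 repeats. Python 3.11.15, numpy 2.4.6, pandas 2.3.3, scipy 1.17.1, Biopython 1.88 and matplotlib 3.10.9 were used.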

Additional observations from a re-analysis of the deposited data

How the results depend on the processing

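Of 69 values recomputed under other settings, 62 stayed within the interval of the main value, or within 1.5 times it for the count in both lists, and none changed sign. Every interval of a difference includes 0, so a difference that fell to 0 also counted as unchanged. These counts therefore do not measure how stable the differences are. Using all deposited peaks or q under 0.01 changed no value. When at least 50% of a repeat had to be covered, 0.260% of repeats held a peak in *tho* and 0.260% in *wt*, and 0 in both lists. When a summit had to lie inside, the shares were 0% in *tho* and 0% in *wt*, 0 repeats were in both lists and every difference was 0. Among mostly unique repeats, 1 held a peak in both lists. The solo minus within-Ty difference in *tho* of 1.74 points was 0.404 points with overlapping repeats joined and, in an alternative chosen after seeing the data, 0.465 points with the 4 repeats that overlap an element in part counted as within Ty. The interval of the main value holds both. In *wt* that difference of 0.347 points was 0.0653 points among repeats of at least 100 bp. The near minus far difference ran from 2.23 to 4.87 points in *tho* and from 1.91 to 3.31 points in *wt* between limits of 1000 and 200 bp, and was 0.459 points in each with at least 50% covered. With 1 library per condition, no library could be left out. No paired analysis was possible because no result comes from a test. Counts of 12 repeats or fewer and the unknown depth limit every share given here.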

Other observations

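Ty5 repeats held no peak but had a shorter median distance to the nearest *wt* summit than each other family. Single repeats of other families lay nearer, down to 43 bp in Ty3. The median distance from a Ty5 repeat to the nearest *wt* summit was 516 bp, with values from 259 to 3411 bp over the 8 repeats, against a median of 6523.5 bp over all 384 repeats. To the nearest *tho* summit it was 4633 bp, with values from 396 to 15678 bp, against 11955 bp over all repeats. Of the 8 Ty5 repeats, 7 lie within 20 kb of a chromosome end, and whether this sets the distances was not tested.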
